A study of Mus musculus with 96 samples.

Results

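The genes described here encode 10 enzymes of amino acid catabolism: the aminotransferases Tat, Got1, Gpt, Gpt2 and Oat, the oxidative enzymes Tdo2, Prodh and Aass, and the ammonia-releasing enzymes Sds and Gls2. Their members are the accessible regions (peaks) of liver chromatin whose nearest annotated transcription start site (TSS) is that of one of these genes, at a distance of at most 100000 bp. This gave 99 of the 77002 listed regions, 84 of 46832 in hepatocyte nuclei and 15 of 30170 in macrophage nuclei. All of them passed the filter on low values (a mean of at least 10), and 16 of the 84 and 2 of the 15 share bases with another member. A peak named by its nearest TSS is not thereby shown to act on that gene, and a higher level cannot be told apart from more nuclei with the region open.

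Open chromatin was mapped by ATAC-seq, in which a transposase inserts sequencing adapters into accessible DNA, on nuclei captured on beads by a cell-type tag (INTACT). Female HEP-INTACT mice gave hepatocyte nuclei and female MAC-INTACT mice gave macrophage nuclei of the liver. Within each line, fasted mice lost their food at ZT12, the start of the active phase, for 3, 8, 16 or 24 h, and ad libitum fed mice were taken at the same 4 times (ZT15, ZT20, ZT4 and ZT12). Each of the 16 groups held 4 mice, numbered 1 to 4 here within a group. All mice of a table carried the same nuclear tag, and its driver, the strain and the age are not given in the sources used here. The feeding-state labels of the macrophage samples, unlike those of the hepatocyte samples, end in "lys", which the labels do not explain. The time of fasting moves with the time of day, so only fasted and fed mice of the same time were compared.

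The liver takes up amino acids from the gut and, in fasting, from muscle. Aminotransferases move the amino group of an amino acid to a keto acid such as 2-oxoglutarate, and dehydratases and glutaminase release ammonia. The carbon skeletons feed glucose synthesis, the citric acid cycle or ketone bodies. Tat and Tdo2 are textbook glucocorticoid-responsive genes of the hepatocyte, and Sds and the alanine aminotransferases respond to fasting hormones and to protein intake.

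Levels are normalized reads per 200 bp peak, as mean ± SD of 4 mice or mouse by mouse. A log2 fold change is fasted minus fed on log2(value + 2), ± SE, so that changes from a level near 0 are understated. A fold is 2 raised to that change. A peak was called opened or closed where limma's moderated test, with Benjamini-Hochberg adjustment over all tested peaks of the table, gave an adjusted p under 0.05. Reads in peaks ranged from 2458156 to 6098645 per hepatocyte mouse and from 1729720 to 4637873 per macrophage mouse. Promoter peaks (within 1000 bp of the TSS) were listed for 8 of 10 hepatocyte markers and 0 of 10 macrophage markers in the hepatocyte table, and for 0 of 10 and 10 of 10 in the macrophage table. The hepatocyte markers without one were Tf and Ttr. Of markers of other liver cells, the hepatocyte table had promoter peaks for 0 of 5 endothelial, 0 of 3 neutrophil and 0 of 4 lymphocyte genes, 1 of 3 cholangiocyte genes (Sox9) and 1 of 4 stellate genes (Reln). The macrophage table had them for 2 of 3 neutrophil genes (all but Ly6g) and 1 of 5 endothelial genes (Lyve1). None was listed there for stellate, cholangiocyte or lymphocyte genes. At 16 h the summed level of the neutrophil peaks was 98.0 to 124 in fasted and 73.3 to 93.1 in fed mice. At the other times these ranges overlapped, and their part in the macrophage results was not tested.

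Promoter sequence was taken from RefSeq (GRCm38.p6, the assembly that mm10 names) for 7 of the 10 genes, all but Gpt, Sds and Gls2. The 250 bases before the TSS of 4 of them are shown, from both sides of a contrast in which peaks were listed. Near Tat and Tdo2 no macrophage peak was listed. The windows nearest the TSS of Got1 and Gpt2 were listed in both tables at the same coordinates. Each runs 5′ to 3′ on the gene's strand, and capitals mark bases inside the hepatocyte peak nearest the TSS.
Tat promoter (chr8:109990186-109990435, plus strand): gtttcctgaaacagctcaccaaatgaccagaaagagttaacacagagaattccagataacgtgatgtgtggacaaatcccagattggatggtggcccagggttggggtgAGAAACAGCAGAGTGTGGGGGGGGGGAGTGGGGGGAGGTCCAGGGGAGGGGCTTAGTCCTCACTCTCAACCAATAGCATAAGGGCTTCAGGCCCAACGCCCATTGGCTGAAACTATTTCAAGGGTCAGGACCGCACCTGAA
Tdo2 promoter (chr3:81975729-81975978, minus strand): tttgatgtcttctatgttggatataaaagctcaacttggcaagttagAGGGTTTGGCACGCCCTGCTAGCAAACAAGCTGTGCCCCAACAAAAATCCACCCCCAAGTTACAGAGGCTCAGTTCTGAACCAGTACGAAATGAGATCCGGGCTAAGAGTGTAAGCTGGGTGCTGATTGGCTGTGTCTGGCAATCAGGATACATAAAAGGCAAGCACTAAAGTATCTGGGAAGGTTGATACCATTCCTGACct
Got1 promoter (chr19:43524606-43524855, minus strand): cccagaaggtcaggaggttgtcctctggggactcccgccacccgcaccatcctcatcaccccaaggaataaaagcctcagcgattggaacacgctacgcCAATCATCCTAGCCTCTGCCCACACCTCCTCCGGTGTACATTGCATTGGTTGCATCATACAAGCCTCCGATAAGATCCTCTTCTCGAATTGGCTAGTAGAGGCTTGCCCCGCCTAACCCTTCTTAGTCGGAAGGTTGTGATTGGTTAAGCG
Gpt2 promoter (chr8:85492326-85492575, plus strand): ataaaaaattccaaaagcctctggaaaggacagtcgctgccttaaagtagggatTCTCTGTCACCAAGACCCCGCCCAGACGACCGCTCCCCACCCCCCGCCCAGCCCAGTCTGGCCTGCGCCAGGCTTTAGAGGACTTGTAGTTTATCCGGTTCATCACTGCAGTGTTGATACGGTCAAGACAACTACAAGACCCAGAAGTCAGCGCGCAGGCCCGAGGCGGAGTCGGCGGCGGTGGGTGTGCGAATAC

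The promoters of Tat and Tdo2 hold 3 CG dinucleotides each and that of Aass, which also had no macrophage peak, holds 4. Those of Got1 and Prodh hold 11 each, that of Oat 14 and that of Gpt2 16, and all 4 had a macrophage peak over the TSS. The median over 32851 RefSeq promoters of the same length is 6. Whether CG content bears on which promoters had a macrophage peak was not tested. A set of 6 motifs was searched on both strands of these 250 bases. The core of the glucocorticoid response element, ACANNNTGT, is present in 5.84% of all promoters and, of the 7 members, in that of Tdo2, where its 9 bases start 178 bases before the TSS inside the peak. A C/EBP motif, TTGCNNAA, is present in 9.56% of all promoters and in that of Aass, 22 bases before the TSS. None of the 7 holds the forkhead motif TGTTTAC (3.17% of promoters), the cAMP response element TGACGTCA (1.55%), the D-box TTANGTAA (2.06%) or a pair of AGGTCA 1 base apart (0.0335%). These matches describe letters in a short window, and the distal peaks that changed most lie outside it.

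In hepatocyte nuclei, chromatin near these enzymes opened far more often than it closed at 3, 8 and 24 h. In limma, openings lay near 7 of the genes at 3 h and near all 10 at 24 h. The count-based tools edgeR and DESeq2 called 0 opened near Aass at 24 h. The largest rises at 3 h lay near Tat, Gpt2, Got1 and Tdo2. At 3 h, 28 of 84 member peaks opened (33.3%, against 11.3% of all tested peaks) and 1 closed (10.3% of all). Beside it at 3 h, the promoter peak of Reln, a stellate cell marker, read 51.5 to 68.7 in fasted and 10.3 to 24.7 in fed mice, while Des, Lrat and Pdgfrb had no promoter peak, and its part in the result was not tested. At 8 h, 18 opened (20.3% of all) and 2 closed (13.7% of all). At 16 h, 16 opened (19.0% of all) and 9 closed (12.8% of all). At 24 h, 52 opened (61.9%, against 25.3% of all) and 1 closed (11.4% of all), and in 51 of the 52 the 4 fasted mice all lay above the 4 fed mice. How many of all opened peaks lay apart in this way was not counted. The share opened thus stood near that of all peaks at 8 and 16 h and above it at 3 and 24 h. The median log2 fold change of the members was 0.23, 0.20, 0.04 and 0.44 at the 4 times, beside -0.01, 0.08, 0.10 and 0.16 over all peaks.

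Of the 84 hepatocyte peaks, 67 passed at some time. Of these, 58 were called opened and never closed, 5 closed and never opened, and 4 opened at one time and closed at another. The matching shares over all peaks were not counted. The fasting effect itself differed between times in 28 of 84 (33.3%, moderated F test, against 24.1% of all peaks), among them 5 of the 8 near Got1, 4 of the 5 near Sds, 5 of the 18 near Tat and 0 of the 5 near Gpt. In fed mice alone, 12 of 84 varied with time (14.3%, against 21.1% of all). The count at 3 h leaned on mouse 1 and mouse 3 of the fasted group: 14 peaks opened without the first and 17 without the other. At 16 h, 17 closed without fasted mouse 2 and 15 without fed mouse 3. At 24 h the count opened stayed between 46 and 51 with any 1 mouse left out. Centring each library on its median, since all peaks lay 0.16 above 0 at 24 h, left 47 opened and 2 closed at 24 h (16.2% and 13.1% of all peaks), 13 and 14 at 16 h, and 18 and 5 at 8 h. The authors' deposited table called 51 of the 84 at 24 h, all of them among the 53 called here and with the same sign. At 3, 8 and 16 h the authors called 29, 22 and 21, beside 29, 20 and 25 here, with 28, 20 and 20 in both. Among those they did not call at 16 h were the closings near Tat at +8686 and +10043 bp and the opening near Got1 at -51 bp.

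**Figure D1:**
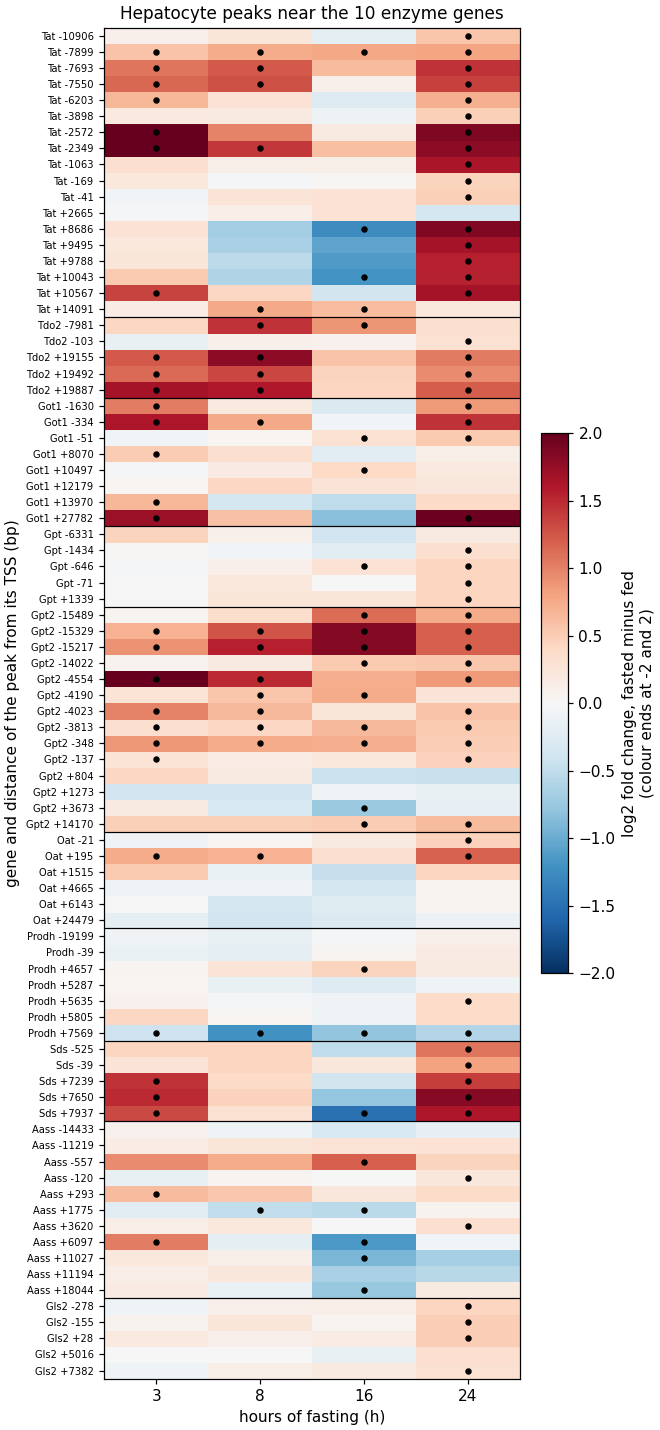
Log2 fold change (fasted minus fed) of the 84 hepatocyte peaks, 1 row per peak labelled with its gene and distance from the TSS in bp, at 4 times of fasting. Dots mark an adjusted p under 0.05. Openings are most numerous at 24 h (52) and closings at 16 h (9).

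Of the 21 member promoter peaks, 5 opened at 3 h, 3 at 8 h, 4 at 16 h and 17 at 24 h (23.8%, 14.3%, 19.0% and 81.0%), against 8.80%, 19.0%, 20.2% and 41.1% of all tested promoter peaks. Of the 63 distal ones, 23, 15, 12 and 35 opened at these times (36.5%, 23.8%, 19.0% and 55.6%), against 12.6%, 21.0%, 18.4% and 16.9% of all distal peaks. The difference between promoter and distal members was not tested. None of the member promoter peaks closed at any time in limma, beside 4.18%, 4.23%, 3.02% and 2.35% of all promoter peaks, a share that amounts to less than 1 peak of 21. Of the 21, 0, 0, 1 and 1 had a negative change at an unadjusted p under 0.05, and edgeR and DESeq2 each called 1 closed at 8, 16 and 24 h. At 24 h edgeR and DESeq2 each called 13 of the 21 opened, against 17 in limma. Over all tested hepatocyte peaks, promoter and distal, they called 5033 and 4602 opened at 24 h, against 11867 in limma. All promoter peaks opened in edgeR or DESeq2 were not counted apart, so their 13 of 21 has no matching share here. The median log2 fold change of the 21 was 0.45 at 24 h, beside 0.26 for all promoter peaks. Promoter peaks of the hepatocyte markers opened alongside, 9 of 15 at 24 h with 1 closed (median 0.36), and their summed level was 1486 to 1777 in fasted and 1251 to 1431 in fed mice. The part of this shift in the members' promoter result was not tested. Of all 84 members, promoter and distal, 16 opened by at least 2-fold at 3 h and 21 at 24 h. Among these, 1 and 3 were promoter peaks. Over all 46827 tested peaks, 1253 and 491 opened by at least 2-fold at these times.

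**Figure D2:**
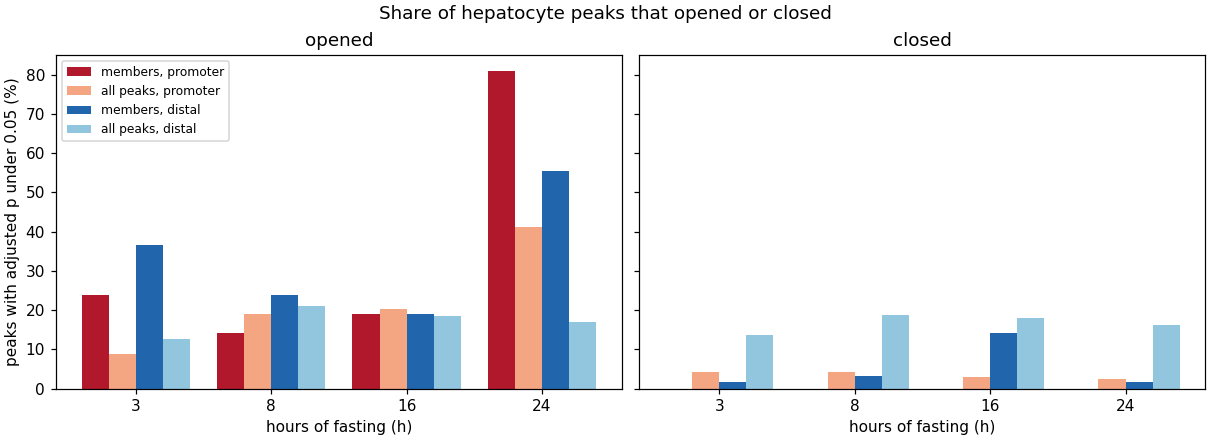
Percent of hepatocyte peaks that opened (left) or closed (right) at each time, for member peaks and all tested peaks, each split into promoter (within 1000 bp of the TSS) and distal. In limma, 81.0% of the member promoter peaks opened at 24 h, and none closed.

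Tat, tyrosine aminotransferase, begins tyrosine breakdown and had 18 hepatocyte peaks, the most of the 10 genes. Its lead peak, the one of smallest p, lay 2349 bp before the TSS (chr8:109987987-109988187, intergenic). At 3 h it read 8.34, 3.69, 3.43 and 4.35 in the fed mice and 81.5, 26.0, 69.8 and 64.0 in the fasted mice. All 4 fasted mice lay above the fed mice, with mouse 2 the lowest of them, and the log2 fold change was 3.10 ± 0.51 (adjusted p = 3.27e-05). At 8 h the fasted mice read 5.69, 70.6, 5.17 and 66.2 and the fed mice 8.26, 7.43, 6.27 and 4.76. Mice 2 and 4 were high, mice 1 and 3 were at the fed level, and the call (1.41 ± 0.51, adjusted p = 0.0300) was lost without fasted mouse 2 or 4 and without fed mouse 3 or 4. At 16 h the fasted mice read 3.45, 12.5, 33.7 and 8.73 beside 6.29, 6.27, 5.90 and 8.50 in the fed, which did not pass (adjusted p = 0.379). At 24 h fed mice themselves were higher, at 22.0, 27.0, 10.9 and 26.2, and fasted mice read 85.3, 75.8, 66.2 and 75.3, a log2 fold change of 1.79 ± 0.51 (adjusted p = 0.00707). The level in fed mice varied with time (F test, adjusted p = 0.0431), whereas the test that the fasting effect differs between times gave an adjusted p of 0.0510.

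The peak beside it at -2572 bp opened at 3 h, 4.65-fold, and at 24 h, 3.63-fold, and passed neither at 8 h (0.99 ± 0.48, adjusted p = 0.104) nor at 16 h (0.793). A trio at -7899, -7693 and -7550 bp opened at 3, 8 and 24 h, by 1.49- to 2.21-fold at 3 h, and the outermost of them also at 16 h. A second cluster lies at the other end of the gene, from +8686 to +10567 bp. Its outermost peak, at +10567 bp, opened at 3 h (1.34 ± 0.48), a call in which the groups overlapped. At 16 h the peak at +8686 bp (3′ UTR) averaged 26.0 ± 19.0 in fasted and 57.3 ± 24.4 in fed mice, and that at +10043 bp 51.9 ± 37.8 and 100.4 ± 35.7. Both closed, narrowly (adjusted p = 0.0493 and 0.0451) and with overlapping groups, and each call was lost with 5 of the 8 mice left out in turn and in DESeq2. At 24 h all 5 peaks of the cluster opened with no overlap, that at +8686 bp from 34.5 ± 15.4 to 123 ± 19.5, 3.63-fold. The fasting effect differed between times at 4 of these 5.

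The peak nearest the Tat TSS, at -41 bp, averaged 101 ± 15.8 in fed and 96.8 ± 11.7 in fasted mice at 3 h, when the peak at -2349 bp had risen 8.60-fold. It opened at 24 h, from 93.1 ± 15.0 to 129 ± 16.0 (0.47 ± 0.12, adjusted p = 0.00337). In all, 16 of the 18 Tat peaks opened at 24 h in limma, with no overlap between groups in any of the 16. Both edgeR and DESeq2 called 14 opened. The exceptions in limma were the intronic peak at +2665 bp (-0.36 ± 0.26) and that at +14091 bp (0.22 ± 0.16). The latter had opened at 8 h (0.76 ± 0.16) and 16 h (0.61 ± 0.16).

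**Figure D3:**
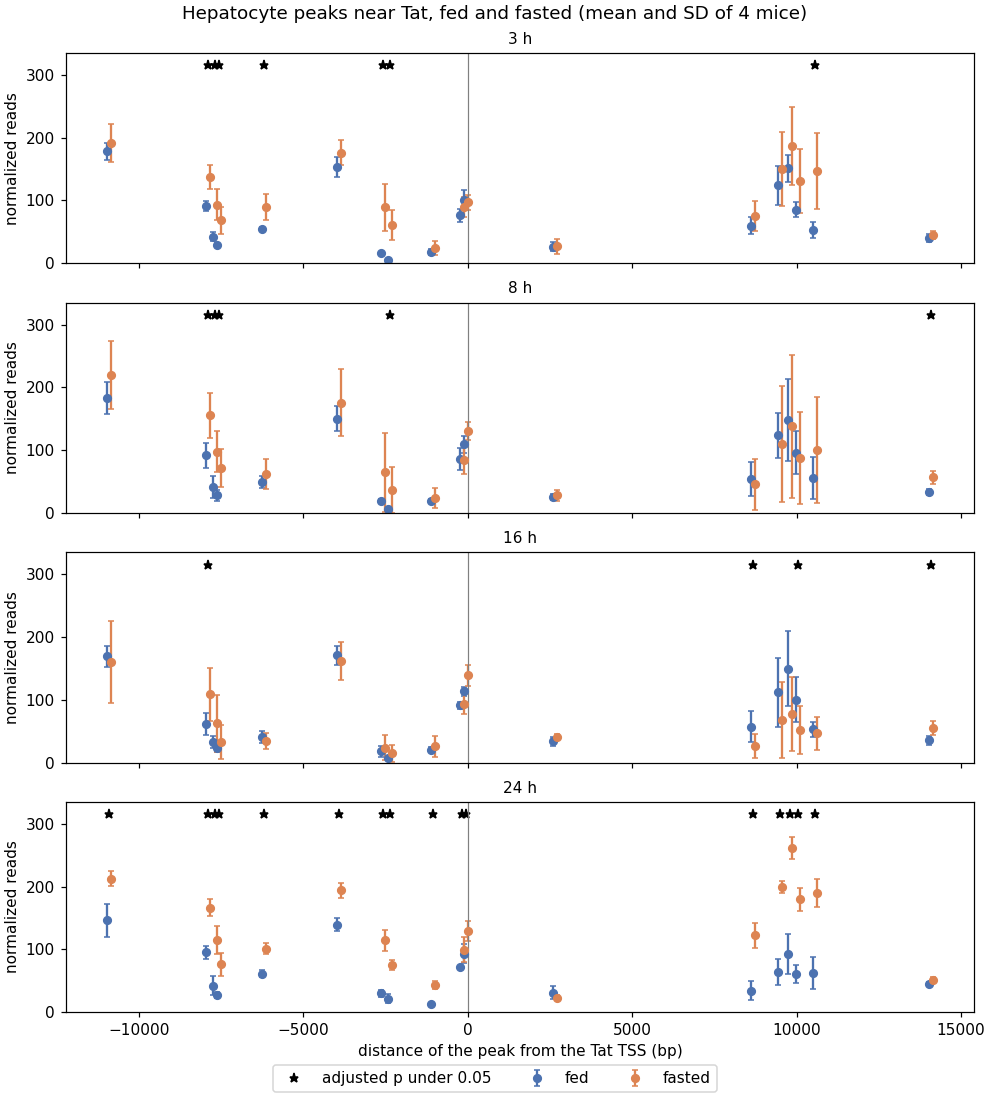
Normalized reads (mean and SD of 4 mice) of the 18 hepatocyte peaks near Tat, by distance from the TSS in bp, in fed and fasted mice, 1 panel per time. Stars mark an adjusted p under 0.05. The fasted means of the cluster at +8686 to +10567 bp lie above the fed at 24 h and below them at 16 h.

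Got1, the cytosolic aspartate aminotransferase of the malate-aspartate shuttle, had 8 hepatocyte peaks. Its lead peak lay 334 bp before the TSS (chr19:43524839-43525039, promoter). At 3 h it read 52.0, 36.1, 30.9 and 43.5 in fed and 165, 91.0, 155 and 111 in fasted mice, apart in every mouse (1.62 ± 0.26, adjusted p = 2.04e-05). At 8 h the fasted mice read 64.0, 147, 79.3 and 169 and the fed mice 64.3, 54.8, 64.8 and 64.3. Mice 2 and 4, the same animals that were high at Tat, were again high, mouse 1 lay within the fed range, and the call (adjusted p = 0.0213) was lost without mouse 2, without mouse 4 or without fed mouse 2. At 16 h fasted mice read 30.2, 87.3, 103 and 47.1, on both sides of the fed values of 60.8, 76.7, 45.2 and 71.2. At 24 h they read 193, 166, 154 and 212 against 51.4, 69.2, 70.7 and 69.1, 2.73-fold higher. The effect differed between times (adjusted p = 0.00326).

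The window over the TSS itself (-51 bp) averaged 146 ± 9.47 in fed and 142 ± 12.7 in fasted mice at 3 h and opened at 16 h (0.30 ± 0.12) and 24 h (0.52 ± 0.12). The peak in the 3′ UTR, at +27782 bp, rose 3.30-fold at 3 h, averaged 10.1 in fasted and 18.1 in fed mice at 16 h, where it did not pass (adjusted p = 0.0990), and rose 3.87-fold at 24 h, the largest opening of any member at that time. In limma, 5 of the 8 Got1 peaks opened at 3 h, 1 at 8 h, 2 at 16 h and 4 at 24 h, and none closed. Over all hepatocyte peaks 11.3%, 20.3%, 19.0% and 25.3% opened at these times. At 16 h edgeR and DESeq2 each called 1 Got1 peak opened and 1 closed. At 24 h DESeq2 called 3 opened.

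Gpt2, the mitochondrial alanine aminotransferase, had 14 hepatocyte peaks, and its upstream regions split into a distal trio and a nearer group. The lead peak lay in the trio, 15329 bp before the TSS (chr8:85477188-85477388, intergenic). At 16 h it read 18.9, 25.1, 19.7 and 19.1 in fed and 65.6, 67.5, 119 and 72.4 in fasted mice, with mouse 3 far above the rest and every fasted mouse above the fed (1.84 ± 0.20, adjusted p = 1.39e-08). The 4 log2 fold changes in order of time were 0.70, 1.25, 1.84 and 1.19, all called, and they differed between times (adjusted p = 0.0220). The call at 3 h was lost without fasted mouse 1. Its neighbour at -15217 bp, which shares bases with it, also opened at all 4 times and reached 1.83 at 16 h.

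The nearer peak at -4554 bp (chr8:85487963-85488163, intergenic) changed most at 3 h instead. At 3 h it read 7.70, 11.8, 7.54 and 10.9 in fed and 59.5, 40.0, 69.8 and 41.1 in fasted mice, with no overlap. Its log2 fold changes were 2.23, 1.49, 0.72 (adjusted p = 0.0959) and 0.86. Fed mice rose on their own account, from 9.48 at ZT15 to 30.4 at ZT12 (time in fed mice, adjusted p = 0.00767). The promoter peak at -348 bp opened at all 4 times, by 1.82-fold at 3 h and 1.40-fold at 24 h, and it too varied in fed mice (adjusted p = 0.00298). In limma the intronic peak at +3673 bp was the only one near Gpt2 that closed, at 16 h (-0.74 ± 0.19), whereas edgeR and DESeq2 each called 1 closed at 8 h, 2 at 16 h and 1 at 24 h. Counts opened were 7, 7, 8 and 10 of 14 at the 4 times in limma, and 7 at each time in edgeR and DESeq2.

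Gpt, the cytosolic alanine aminotransferase measured in serum as ALT, differed from Gpt2 in size and timing of its calls. None of its 5 peaks passed at 3 or 8 h in limma, edgeR or DESeq2, and 1 had an unadjusted p under 0.05 at each of these times. The lead peak at -646 bp (chr15:76695980-76696180, promoter) read 149, 145, 165 and 161 in fed and 218, 189, 198 and 234 in fasted mice at 24 h, apart in every mouse but only 1.35-fold (adjusted p = 0.00247). It had passed at 16 h as well (0.28 ± 0.11, adjusted p = 0.0409), a call lost after median centring, in edgeR and DESeq2 and with 5 of the 8 mice left out in turn. At 24 h 4 of the 5 opened in limma, with log2 fold changes of 0.32 to 0.44, and that at -6331 bp did not (adjusted p = 0.496). Both edgeR and DESeq2 called 3 opened. Limma called 25.3% of all hepatocyte peaks and 41.1% of all promoter peaks opened at 24 h. The difference between Gpt and Gpt2 was not tested.

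Oat, the mitochondrial ornithine aminotransferase, had 6 hepatocyte peaks, of which 1 carried most of the change. The lead peak at +195 bp (chr7:132576103-132576303, first part of the gene, annotated as intron) read 22.0, 17.5, 19.0 and 20.1 in fed and 59.2, 41.7, 38.3 and 51.6 in fasted mice at 24 h. Every fasted mouse lay above the fed, by 1.18 ± 0.21 on the log2 scale (adjusted p = 9.17e-05). It had opened at 3 h (0.75 ± 0.21), where fasted mice 2 and 4 lay among the fed, and at 8 h (0.70 ± 0.21). The call at 3 h was lost without fasted mouse 1 or 3 or fed mouse 1, and that at 8 h without fasted mouse 4. The window over the TSS, at -21 bp, opened at 24 h only (0.45 ± 0.12). The 4 peaks from +1515 to +24479 bp passed at no time in limma, where at an unadjusted p under 0.05 1 was higher at 3 h and at 24 h, 1 lower at 8 h and 2 lower at 16 h. Both edgeR and DESeq2 called 1 Oat peak closed at 8 h and 1 at 16 h.

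**Figure D4:**
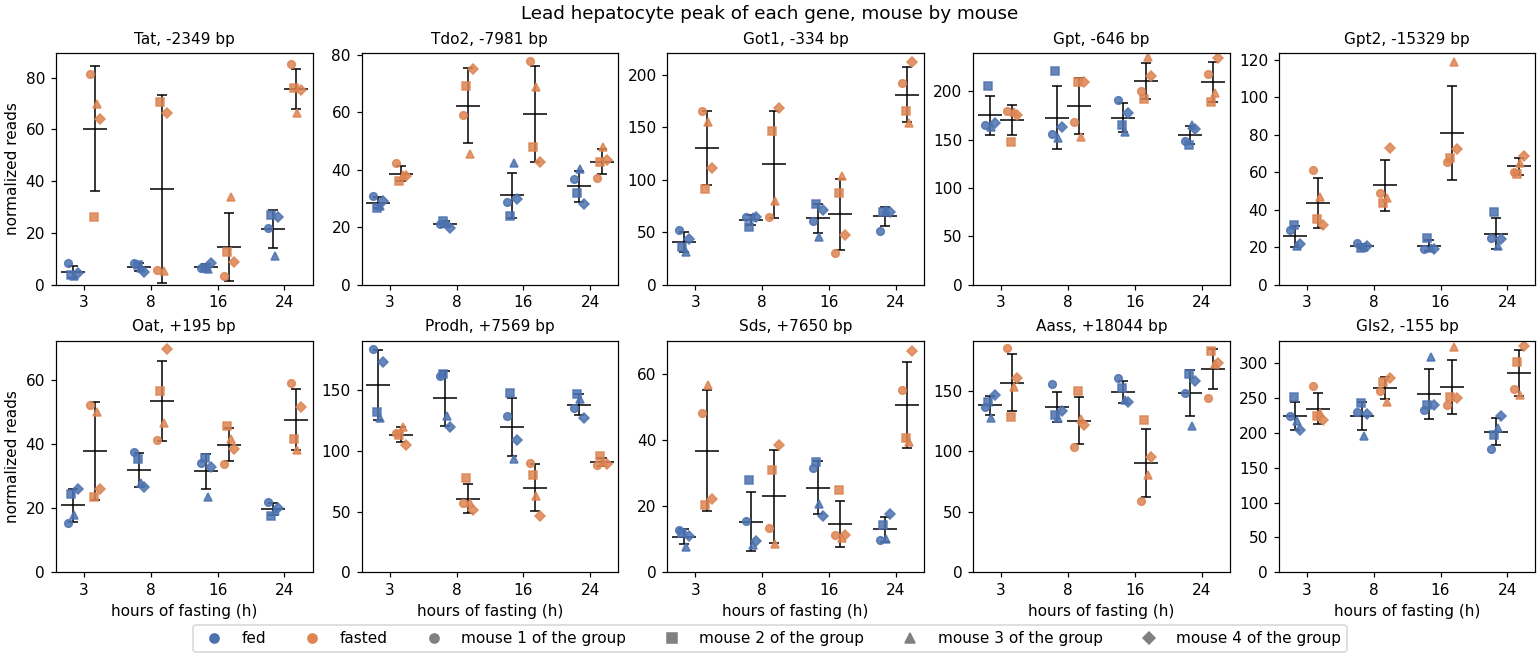
Normalized reads of the lead hepatocyte peak of each gene in every mouse, fed and fasted, at 3, 8, 16 and 24 h. Bars give mean and SD of 4 mice, and the symbol gives the mouse number within its group. Fasted 8 h mice 2 and 4 stand above mice 1 and 3 at Tat, Got1 and Sds.

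Tdo2, tryptophan dioxygenase, takes the first step of the kynurenine pathway and had 5 hepatocyte peaks in 3 places. The lead peak lay 7981 bp before the TSS (chr3:81983609-81983809, intergenic). At 8 h it read 21.1, 22.3, 21.6 and 19.6 in fed and 59.1, 69.2, 45.4 and 75.2 in fasted mice, all apart (1.45 ± 0.17, adjusted p = 6.04e-08). It opened again at 16 h (0.88 ± 0.17) and passed neither at 3 h (adjusted p = 0.0848) nor at 24 h (0.151), and the effect differed between times (adjusted p = 0.00298). The 3 peaks in the 3′ UTR, from +19155 to +19887 bp, opened instead at 3, 8 and 24 h. That at +19887 bp rose 3.18-, 3.04- and 2.32-fold at these times and averaged 19.8 ± 9.31 in fasted and 13.4 ± 3.80 in fed mice at 16 h. The peak nearest the TSS, at -103 bp, averaged 179.8 ± 20.2 and 193 ± 25.4 at 8 h and opened at 24 h by 0.31.

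Prodh, proline dehydrogenase, oxidizes proline in the mitochondrion, and its lead peak ran against the others. The intronic peak at +7569 bp (chr16:18081521-18081721) was the only member that closed at all 4 times. At 8 h fed mice read 162, 163, 129 and 119.6 and fasted mice 56.9, 77.7, 57.5 and 51.0, with all fasted mice below the fed and a log2 fold change of -1.22 ± 0.15 (adjusted p = 1.07e-07). At 24 h the values were 136, 147, 143 and 127 and 88.8, 95.7, 90.8 and 89.2, again apart. The 4 changes in order of time were -0.42, -1.22, -0.79 and -0.59 and differed between times (adjusted p = 0.0262). That at 3 h (adjusted p = 0.0427) was lost under 6 of the 8 mice left out in turn. Of the other 6 Prodh peaks, +4657 bp opened at 16 h (0.44 ± 0.12) and +5635 bp at 24 h (0.37 ± 0.10). In limma the window over the TSS (-39 bp) passed at no time. Both edgeR and DESeq2 called 2 Prodh peaks closed at 8 h, against 1 in limma, and 1 opened at 3 h, against 0.

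Aass, the bifunctional enzyme that starts lysine breakdown, had 11 hepatocyte peaks, and 4 of them closed at some time, more than near any other member. Its lead peak, in an exon 18044 bp into the gene (chr6:23114842-23115042), read 160.1, 152, 142 and 140.3 in fed and 58.7, 126, 80.1 and 95.1 in fasted mice at 16 h. All fasted mice lay below the fed (-0.76 ± 0.14, adjusted p = 6.16e-05), with mouse 1 lowest and mouse 2 nearest the fed. At 3, 8 and 24 h the changes were 0.17, -0.13 and 0.18 and did not pass, and the effect differed between times (adjusted p = 0.00136). The intronic peak at +6097 bp opened at 3 h (1.02 ± 0.25) and closed at 16 h (-1.14 ± 0.25). In all, 4 of the 11 closed at 16 h, among them +11027 bp (-0.91 ± 0.30), a call lost with 4 of the 8 mice left out in turn. The promoter peak at -557 bp opened at 16 h (1.20 ± 0.39), a call lost without fasted mouse 2 or 3 or fed mouse 3, and the peak nearest the TSS (-120 bp) at 24 h (0.23 ± 0.08). At 24 h limma called 2 Aass peaks opened, and edgeR and DESeq2 called 0.

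Sds, serine dehydratase, turns serine into pyruvate and ammonia, and all 5 of its hepatocyte peaks opened at 24 h with no overlap. The lead peak lay at the end of the gene, +7650 bp (chr5:120484097-120484297, transcription termination site). At 24 h it read 9.79, 14.3, 10.2 and 17.5 in fed and 55.0, 40.8, 39.6 and 67.1 in fasted mice (1.81 ± 0.36, adjusted p = 2.58e-04). At 3 h it read 12.8, 11.8, 7.54 and 10.9 and 48.1, 20.5, 56.7 and 22.1, a 2.82-fold rise in which fasted mice 1 and 3 were the high ones. At 8 h fasted mice read 13.5, 31.1, 8.62 and 38.6, with mice 2 and 4 high once more, and did not pass (adjusted p = 0.340). At 16 h the neighbour at +7937 bp closed, from 23.6 ± 9.73 in fed to 7.45 ± 5.56 in fasted mice (-1.50 ± 0.43), with overlapping groups, while the lead peak did not pass (-0.78 ± 0.36). The effect differed between times at the lead peak (adjusted p = 0.00104). The promoter peaks at -39 and -525 bp passed at 24 h only, by 0.80 and 1.07.

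Gls2, the liver-type glutaminase, had 5 hepatocyte peaks, and calls fell at 24 h only. At 3, 8 and 16 h limma, edgeR and DESeq2 called none, with 0, 1 and 1 at an unadjusted p under 0.05. The lead peak at -155 bp (chr10:128194380-128194580, promoter) read 177, 197, 207 and 224 in fed and 263, 302, 254 and 325 in fasted mice, 1.41-fold apart without overlap (adjusted p = 2.33e-04). Among the 5, 4 opened at 24 h in limma, by 0.30 to 0.50, and the exonic peak at +5016 bp did not (0.34 ± 0.19). Both edgeR and DESeq2 called 3 opened. At 24 h limma called 25.3% of all hepatocyte peaks and 41.1% of all promoter peaks opened.

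The hepatocyte peaks most like the Tat lead peak, by Pearson's r over the 8 group means on the log2 scale, lay near Arhgef3 at -39914 bp, Rhobtb1 at -103814 bp, Sys1 at -5103 bp, Ddit4 at +30352 bp and Alas1 at +12121 bp, with r = 0.99 for each. The 8 points share their libraries and times, and the measure is given as a description. Among members, the peak at -2572 bp near Tat (r = 0.98), +19887 bp near Tdo2 (0.97), -4554 bp near Gpt2 (0.95), -4023 bp near Gpt2 (0.94) and -334 bp near Got1 (0.93) came closest.

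In macrophage nuclei 15 peaks were listed, 7 near Got1, 3 each near Gpt2 and Oat and 1 each near Gpt and Prodh, and none near Tat, Tdo2, Sds, Aass or Gls2. None opened at any time in limma, against 1.68%, 1.63%, 3.79% and 3.00% of all tested macrophage peaks at 3, 8, 16 and 24 h. At an unadjusted p under 0.05, 2, 0, 1 and 1 were higher, edgeR called 0, 0, 2 and 1 opened, DESeq2 0, 0, 1 and 1, and limma after median centring 0, 0, 2 and 1. The window over the Oat TSS closed at 8 h, the single call among the 15, and closings took 0.139%, 4.96%, 17.5% and 8.28% of all peaks. It read 126, 125, 121 and 144 in fed and 112, 95.6, 102 and 105 in fasted mice, all apart (-0.31 ± 0.09, adjusted p = 0.0370). The call was lost after median centring, in edgeR and DESeq2, and with 6 of the 8 mice left out in turn. The fasting effect differed between times in 0 of the 15 (3.49% of all), and 0 varied with time in fed mice (1.63% of all), with 2 and 0 at an unadjusted p under 0.05.

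Of the 15 macrophage peaks, 7 stood at the coordinates of a hepatocyte member peak: the windows over the TSS of Got1, Gpt2, Oat and Prodh, Gpt +1339 bp, Got1 +12179 bp and Oat +24479 bp. At the TSS of Got1, the 24 h values were 182, 202, 177 and 203 in fed and 220.5, 210.2, 228 and 237 in fasted macrophage mice. The groups did not overlap, and the change of 0.23 ± 0.09 did not pass (adjusted p = 0.0728). In hepatocyte nuclei it was 0.52 ± 0.12. At the Gpt2 TSS the 24 h changes were 0.04 ± 0.08 in macrophage and 0.46 ± 0.10 in hepatocyte nuclei, at the Oat TSS 0.12 ± 0.09 and 0.45 ± 0.12, and at Gpt +1339 bp 0.09 ± 0.08 and 0.44 ± 0.12. Over all peaks the median change at 24 h was -0.06 in macrophage and 0.16 in hepatocyte nuclei. At 3 h the macrophage change was the higher at every shared window but that over the Gpt2 TSS. At Got1 +12179 bp it was 0.63 at 3 h and 0.69 at 16 h, beside 0.04 and 0.25 in hepatocyte nuclei. The tables were normalized separately, and the difference between the cell types was not tested.

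**Figure D5:**
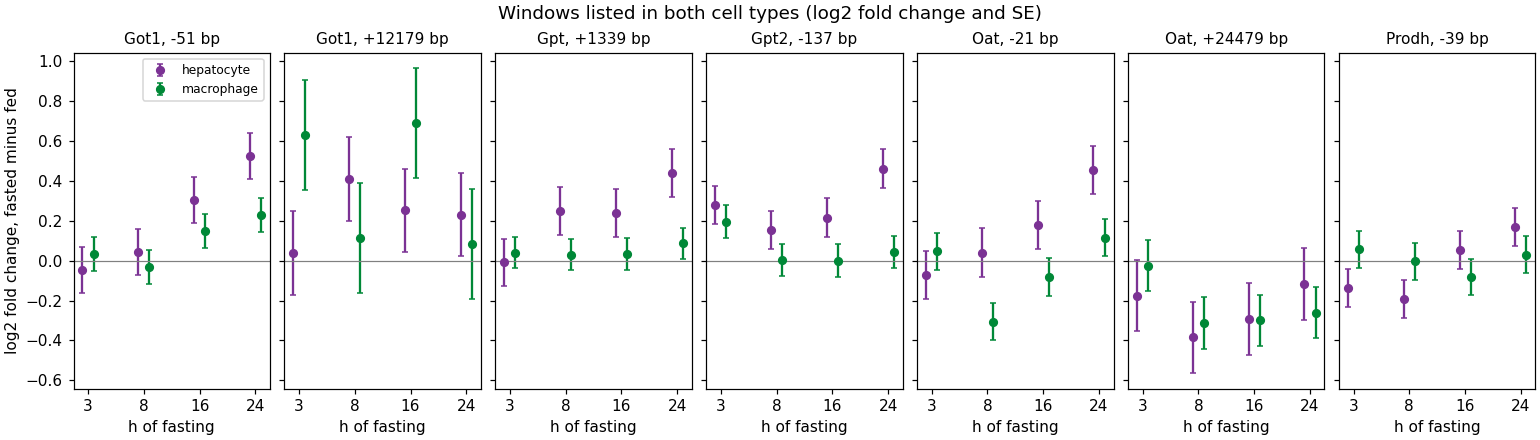
Log2 fold change (fasted minus fed, with SE) at the 7 windows listed in both cell types, at 3, 8, 16 and 24 h of fasting. At 24 h the hepatocyte value lies above the macrophage value at all 7, where the median over all peaks was 0.16 in hepatocyte and -0.06 in macrophage nuclei. At 3 h the macrophage value is the higher at every window but that over the Gpt2 TSS. The Oat TSS window holds the only macrophage call, at 8 h.

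Other genes of amino acid catabolism, 70 symbols of which 68 had hepatocyte peaks, gave 364 peaks at the same distance. The numbers opened in order of time were 48, 71, 67 and 116, which is 13.2%, 19.5%, 18.4% and 31.9%, against 11.3%, 20.3%, 19.0% and 25.3% of all hepatocyte peaks. The numbers closed were 21, 31, 31 and 15, which is 5.77%, 8.52%, 8.52% and 4.12%, against 10.3%, 13.7%, 12.8% and 11.4% of all. Their median log2 fold change was 0.02, 0.09, 0.08 and 0.23. At 24 h, when 25.3% of all hepatocyte peaks opened, the sulfur amino acid genes had 31 of 74 opened (41.9%), the glycine, serine and threonine genes 28 of 84 (33.3%) and the phenylalanine and tyrosine genes 17 of 52 (32.7%). Near the share of all peaks were the branched-chain genes with 16 of 57 (28.1%) and 6 closed, the tryptophan and lysine genes with 12 of 41 (29.3%), the histidine genes with 5 of 19 (26.3%) and the proline genes with 4 of 16 (25%). The glutamate and aspartate genes had 3 of 21 (14.3%).

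The largest openings among them at 3 h were near Cdo1, cysteine dioxygenase (+30118 bp, 1.90 ± 0.29), Ppm1k, the phosphatase that activates branched-chain keto acid dehydrogenase (-22537 bp, 1.66 ± 0.22), and Mat1a, which makes S-adenosylmethionine (-8269 bp, 1.41 ± 0.24). At 8 h they were near Aadat (1.90), Gldc (1.66) and Mccc2 (1.62), at 16 h near Gldc (1.45), Bckdhb (1.34) and Aadat (1.12), and at 24 h near Csad (1.30), Gldc (1.27) and Cbs (1.22). The largest closings were near Ftcd (-1.08), Ahcy (-0.95) and Haao (-0.89) at 3 h, and near Shmt1 (-1.44), Haao (-1.43) and Gldc (-1.42) at 8 h. At 16 h they were near Bckdhb (-1.31), Auh (-0.99) and Gnmt (-0.91), and at 24 h near Gldc (-1.21), Auh (-1.17) and Bckdhb (-1.08). Gldc, the decarboxylase of the glycine cleavage system, had peaks that opened and a peak that closed at 8, 16 and 24 h (at 16 h 1.45 at +23948 bp and -0.89 at +58585 bp). In macrophage nuclei 61 peaks near 39 of these symbols gave 0, 0, 3 and 1 openings at the 4 times (4.92% at 16 h and 1.64% at 24 h, against 3.79% and 3.00% of all macrophage peaks) and 0, 1, 2 and 0 closings (1.64% at 8 h and 3.28% at 16 h, against 4.96% and 17.5% of all), with the largest closing near Acad8 at 16 h (-0.52) and the largest opening near Aldh6a1 at 24 h (0.44).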

How the data were processed

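ATAC-seq libraries came from tagged hepatocyte and macrophage nuclei of 64 mice, 4 in each of 16 groups. Per the labels, each macrophage sample had 2 technical runs. The authors' table has 1 column per mouse, and how the runs were joined is not given in the sources used here. The deposited signal values are named normalized counts. In every column they were whole multiples of 1 step within 0.01 of a read, so reads were recovered for the count-based alternatives. How the factor per library was set is not given. Per the submitters' processing notes, BWA 0.7.5a-r405, SAMtools, HOMER and DESeq2 were used with mm10. The authors also deposited log2 fold changes and adjusted p-values for each time, which were used only to compare calls.

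Member rows were taken by gene name and distance. limma 3.58.1 (R 4.3.3) was fitted per table on log2(value + 2), with 8 group means and a trend in the prior variance, over peaks averaging 10 or more normalized reads (46827 of 46832 and all 30170). Tests were two-sided with Benjamini-Hochberg adjustment over all tested peaks at 0.05. Moderated F tests compared the fasted-minus-fed change across the 4 times and the fed groups with each other. The fits were tested on simulated data. Alternatives were other offsets, filters, median centring, a block on sets of library numbers, fits of only the groups compared, DESeq2 1.42.0 and edgeR 4.0.16 (TMM) on the recovered reads, a distance of 50000 bp, and each mouse left out.

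Members, lists, lead peaks (smallest p per gene and table) and the rule for named peaks (in each comparison the 6 opened and 6 closed member peaks of largest change among those called, and 3 and 3 for other pathway genes) were chosen with earlier results of these data known. Reads and distal sequence were not analysed here.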

Additional observations from a re-analysis of the deposited data

Results flagged for a closer look

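The fasting effect differed between the 4 times, by the moderated F test in limma, at 7 of the 15 lead peaks, all in hepatocyte nuclei. The adjusted p was 0.00104 at Sds, 0.00136 at Aass, 0.00298 at Tdo2, 0.00326 at Got1, 0.0220 at Gpt2, 0.0262 at Prodh and 0.0384 at Gls2. These peaks do not share an order of times. The log2 fold change was largest at 3 h at Got1 (1.62, beside 1.45 at 24 h), at 8 h at Tdo2 (1.45) and at 16 h at Gpt2 (1.84). At Sds (1.81) and Gls2 (0.50) it was largest at 24 h. It was lowest at 16 h at Aass (-0.76) and at 8 h at Prodh (-1.22).

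In 13 of 120 groups of 4 mice at the lead peaks, 1 mouse stood apart by Dixon's criterion, which flags about 1 group in 20 by chance. In hepatocyte nuclei the high mice were fed 16 h mouse 4 at Tat (8.50), fed 3 h and fed 8 h mouse 2 at Gpt (205 and 221), fed 16 h mouse 2 (25.1) and fasted 16 h mouse 3 (119) at Gpt2, fasted 16 h mouse 2 at Sds (24.9), and mouse 3 of both 16 h groups at Gls2 (309.5 fed and 323 fasted). The low ones were fed 8 h mouse 2 (54.8) and fed 24 h mouse 1 (51.4) at Got1 and fasted 3 h mouse 2 at Gpt (147). In macrophage nuclei the Gpt peak at +1339 bp had a low fasted 8 h mouse 1 (163) and a high fasted 16 h mouse 1 (201).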

How the results depend on the processing

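No direction reversed in any alternative for the lead peaks and the other named member peaks that passed. The member count opened in hepatocyte nuclei at 24 h and at 16 h and 8 h stayed within 1.5 times the reported one in every alternative. Raising the filter to a mean of 30 removed low peaks and left 17 opened at 3 h and 7 that vary in fed mice. Median centring gave 5, 14 and 2 closed in hepatocyte nuclei at 8, 16 and 24 h, and in macrophage nuclei 0 closed at 8 h and 2 and 1 opened at 16 and 24 h. edgeR with TMM gave 5 and 3 closed at 8 and 24 h in hepatocyte nuclei and 0 closed at 8 h, 2 opened at 16 h and 1 at 24 h in macrophage nuclei. DESeq2 gave 5 and 3, and 0, 1 and 1. The block on library-number sets gave 2 closed at 24 h (hepatocyte) and 1 closed at 16 h (macrophage). Fitting only the groups compared gave 3 closed at 24 h (hepatocyte) and 1 opened at 3 h, 2 closed at 8 h and 1 opened at 24 h (macrophage).

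With 1 mouse left out in turn, hepatocyte counts at 3, 8, 16 and 24 h ranged from 14 to 28, 13 to 23, 12 to 19 and 46 to 51 opened, and from 0 to 1, 2 to 4, 6 to 17 and 1 to 2 closed. Macrophage counts were 0 opened throughout but for 0 to 1 at 16 h, and 0 to 1 at 8 h and 0 to 2 at 16 h closed. No member lay beyond 50000 bp, so that limit changed nothing, and all 7 shared windows overlap in full. No paired analysis was possible because the labels give mice no shared number across groups. Changes under 1.5-fold at peaks of few reads are the least certain at this depth, and the causes of these shifts were not tested.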

Other observations

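The 4 mice fasted for 8 h divided at several genes in the same way. Mice 2 and 4 both lay above mice 1 and 3 at 60 of the 84 hepatocyte member peaks (71.4%) and at 26.2% of all 46832 hepatocyte peaks. The pattern was noticed at the Tat peak at -2349 bp and then counted on the same libraries, and member peaks of a gene are not independent. Mouse 2 had the fewest reads in peaks of all hepatocyte mice (2458156) and mouse 4 had 5249125, against 4785412 and 5816809 in mice 1 and 3, and the part of depth was not tested. At 16 h the order was another: fasted mouse 3 was highest at Tat (33.7), Got1 (103) and Gpt2 (119), and mouse 2 at Sds (24.9).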
